A study of Mus musculus with 2 samples.

Results

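Long chain acyl-CoA synthetases join a free fatty acid to coenzyme A, the step without which a free fatty acid taken up by a cell can be neither built into phospholipid nor oxidised. The Acsl genes encode the main family, Acsbg1 a member of the bubblegum family, and acyl-CoA binding proteins such as Dbi hold the product in the cytosol or at organelle membranes. Retina is rich in docosahexaenoic acid, a polyunsaturated fatty acid that the transporter Mfsd2a carries into brain and eye as a lysophospholipid. Free docosahexaenoic acid, unlike the lysophospholipid form, has to be activated by a synthetase before it can be esterified. The genes described here are Acsl1, Acsl3, Acsl4, Acsl5, Acsl6 and Acsbg1 among the synthetases and Dbi, Acbd3 and Acbd5 among the binding proteins, each taken with every probe set whose platform symbol is that gene alone. Of these 9 genes, 8 had a probe set under that rule, with 20 probe sets in all, out of 18193 genes and 34945 named probe sets other than controls. Acsl1, the synthetase best known from liver, fat and muscle, was not analysed here, since no probe set was named for it alone.

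The study set Mfsd2a KO eye cups beside wild-type eye cups, taken from mice at postnatal day 13. An eye cup is what is left of the eye, namely retina, pigment epithelium, choroid and sclera, once lens, cornea and optic nerve are taken off. Each genotype was 1 Affymetrix Mouse 430 2.0 array, hybridised with RNA pooled from 6 animals, so there is no replicate and no test. The labels give neither the deleted part of Mfsd2a, nor the strain, nor the sexes pooled.

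The single Mfsd2a probe set read 244 on the array labelled Mfsd2a KO and 181 on the wild-type array, a log2 difference of 0.43 against the direction of the label. Whether its probes lie in the deleted part was not analysed here, so it may check nothing, and the sample is called the array labelled Mfsd2a KO throughout. All differences are log2 intensity on that array minus log2 intensity on the wild-type array. Rod markers were present on both arrays, with 6 of 7 listed genes above the floor (a probe set counts as above the floor when either value reaches its array's median) and summed intensities of 78965 on the array labelled Mfsd2a KO and 79590 on the wild-type array. Pigment epithelium markers, with 5 of 6 above the floor, summed to 28790 on the array labelled Mfsd2a KO and 29776 on the wild-type array. Of these sums Ttr alone gave 16010 and 15804. By the brightest probe set of each gene, 4 of the 5 were below 0. At least 1.2-fold lower were 2, where 1.17% of all genes above the floor were. Pigment cell markers had 5 of 5 above the floor, all 5 below 0 and 1 at least 1.2-fold lower. They summed to 14909 on the array labelled Mfsd2a KO and 16682 on the wild-type array. Connective tissue markers of sclera and choroid, with 6 of 6, summed to 14220 on the array labelled Mfsd2a KO and 15071 on the wild-type array. In bulk tissue a change in the number of cells of a type and a change in RNA per cell cannot be told apart. Among array controls, 17 of 18 hybridisation spike-in probe sets differed by more than 0, with a median of 0.099, and 24 labelling spike-in probe sets had a median of 0.046. The ratio of 3' to 5' signal, a measure of RNA integrity, was 1.44 on the array labelled Mfsd2a KO and 1.49 on the wild-type array for Actb. For Gapdh it was 0.942 on the array labelled Mfsd2a KO and 0.973 on the wild-type array.

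The promoters of Acsl4 and Acsl3, the synthetases with the largest differences, are printed because these genes differed in the same direction. Each run is the 250 bases before the most upstream annotated start, 5′ to 3′ on the gene's strand, from RefSeq sequence of build GRCm38.p6. Acsl4 lies on the minus strand at chrX:142390536-142390785 and Acsl3 on the plus strand at chr1:78657575-78657824. Capitals mark matches, on either strand, to the sterol element TCACNCCAC with at most 1 mismatch outside the N, or to the box CCAAT.
Acsl4: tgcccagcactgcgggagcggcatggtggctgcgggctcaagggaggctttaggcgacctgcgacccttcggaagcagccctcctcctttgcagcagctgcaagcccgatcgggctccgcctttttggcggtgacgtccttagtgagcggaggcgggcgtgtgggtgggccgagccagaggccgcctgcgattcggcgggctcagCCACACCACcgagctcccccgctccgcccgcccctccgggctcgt
Acsl3: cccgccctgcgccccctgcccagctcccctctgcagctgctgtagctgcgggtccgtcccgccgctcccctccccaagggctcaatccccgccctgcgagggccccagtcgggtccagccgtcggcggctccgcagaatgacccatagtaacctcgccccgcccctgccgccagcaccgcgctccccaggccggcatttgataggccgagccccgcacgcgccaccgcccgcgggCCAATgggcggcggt
In Acsl4 the capitals are the near match CCACACCAC, whose first base is 45 bases before the start, and in Acsl3 they are a CCAAT box that begins 15 bases before the start. For 7 of the 9 genes, all but Dbi and Acbd3, 11 windows before annotated starts were searched. Acbd3 had no window among the promoter sequences used, and Dbi was left out of the search by choice, so the counts do not cover it. An exact sterol element stood in 0 of the 7 windows at first starts and in 1 of all 11, at the second start of Acsl1, a gene with no array value here, against 1.05% of all 32851 promoter windows of the same length. A match with at most 1 mismatch stood in 4 of the 11 windows, against 20.7% of all, and a CCAAT box in 6, against 33.8% of all. At first starts these stood in 3 and 4 of the 7 windows. The windows with at most 1 mismatch were both of Acsl1 and those of Acsl4 and Acsl5, and Acsl5 differed by only 0.063. All these matches are of letters, not binding sites.

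The synthetase and binding protein genes read slightly higher on the array labelled Mfsd2a KO with the values as deposited. Once the median of the hybridisation spike-ins was subtracted, 7 of their 18 probe sets above the floor lay below 0. Of their 20 probe sets, 18 were above the floor, and 17 of these 18 had a difference above 0, where 55.9% of all 20105 named probe sets above the floor did. Their median difference was 0.15, against 0.016 over all named probe sets above the floor, whose central 95% ran from -0.21 to 0.24. At least 1.2-fold higher were 3 of the 18, both Acsl4 probe sets and 1 of Acsl3, where 1.85% of all were. At least 1.2-fold lower were 0 of the 18, where 1.15% of all were. At the smaller size of 1.1-fold 9 were higher, against 11.0% of all, and 0 were lower, against 6.98% of all. With 1 array per genotype these counts describe 2 pools, and probe sets of 1 gene share its RNA and are not replicates. Subtracting the median of the hybridisation spike-ins, a scaling tried after seeing the data, left 11 of 18 above 0, a median of 0.047 and 1 probe set, of Acsl4, at least 1.2-fold higher. Under that scaling every Acsl5 and Acsl6 probe set lay below 0, while those of Acsl4 and Dbi above the floor, and 2 of 3 of Acsl3, stayed above 0. The labelling spike-ins had a smaller median, 0.046 against 0.099, and scaling by them was not run.

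**Figure D1:**
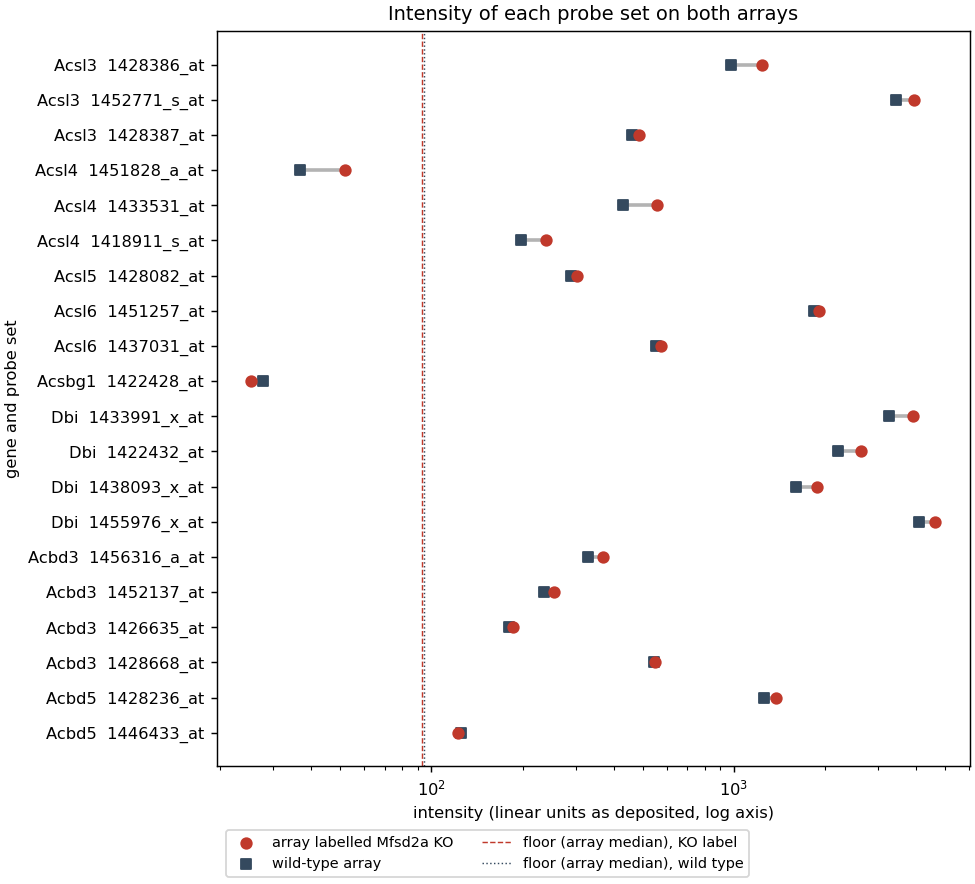
Intensity of each probe set (linear units as deposited, log axis) on the array labelled Mfsd2a KO (red circles) and the wild-type array (dark squares), with each array's median as the floor. Circles lie to the right of their squares in every probe set but 1446433_at of Acbd5 and the 1 of Acsbg1. The Acsbg1 probe set and 1 of Acsl4 lie under the floor on both arrays.

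Among the synthetases, Acsl4, which prefers arachidonic acid and other polyunsaturated fatty acids and is needed for the lipid peroxidation of ferroptosis, had the largest difference. Probe set 1433531_at read 555 on the array labelled Mfsd2a KO and 430 on the wild-type array, a log2 difference of 0.37 or 1.29-fold. Probe set 1418911_s_at read 239 on the array labelled Mfsd2a KO and 197 on the wild-type array, a difference of 0.28 or 1.21-fold. A further probe set, 1451828_a_at, read 51.8 on the array labelled Mfsd2a KO and 36.8 on the wild-type array, below the floor on both, so that the size of its difference of 0.49 is uncertain. All Acsl4 probe sets thus read higher on the array labelled Mfsd2a KO. The pair above the floor had an SD of 0.065, below the SD of 0.0886 among probe sets of the same gene over 5201 genes.

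Acsl4 is X-linked, and sex-linked transcripts also differed between the pools. Xist, the RNA of the inactive X chromosome, had differences of -0.98 to -0.70 in its 3 probe sets. The Y-linked genes Uty, Kdm5d and Eif2s3y had probe sets above the floor with differences of 0.65 to 1.01. Over 610 X-linked probe sets above the floor the median difference was 0.026, with 17 (2.79%) past 1.2-fold on the higher side and 8 (1.31%) on the lower side, where 1.85% and 1.15% of all named probe sets were. The 610 include the 3 Xist probe sets, which are among the 8, and those of Acsl4 above the floor, which are among the 17. The part of the pools' sex make-up in the Acsl4 difference was not tested.

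Acsl3, a synthetase of endoplasmic reticulum and lipid droplets, was less even across its probe sets. Probe set 1428386_at read 1235 on the array labelled Mfsd2a KO and 974 on the wild-type array, a difference of 0.34 or 1.27-fold. The brightest, 1452771_s_at, read 3942 on the array labelled Mfsd2a KO and 3427 on the wild-type array, a difference of 0.20. Probe set 1428387_at read 485 on the array labelled Mfsd2a KO and 458 on the wild-type array, a difference of only 0.082. The direction was shared, but the differences spanned 0.26, with an SD of 0.13 over the 3 probe sets, wider than the SD of 0.0886 usual for 1 gene.

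Acsl6, the synthetase of neurons that in mouse brain is needed to retain docosahexaenoic acid, differed little. Probe set 1451257_at read 1914 on the array labelled Mfsd2a KO and 1841 on the wild-type array, and 1437031_at read 574 on the array labelled Mfsd2a KO and 552 on the wild-type array. Their differences were 0.057 and 0.056, smaller than the SD among probe sets of the same gene, and both below 0 once the spike-in median was subtracted. Acsl5, a synthetase of mitochondria and endoplasmic reticulum best known from intestine, read 303 on the array labelled Mfsd2a KO and 290 on the wild-type array in its 1 probe set, a difference of 0.063. Acsbg1, the bubblegum synthetase known from brain and steroid-producing tissue, read 25.3 on the array labelled Mfsd2a KO and 27.7 on the wild-type array. It was below the floor on both arrays, so that the size of its difference of -0.13 is uncertain.

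**Figure D2:**
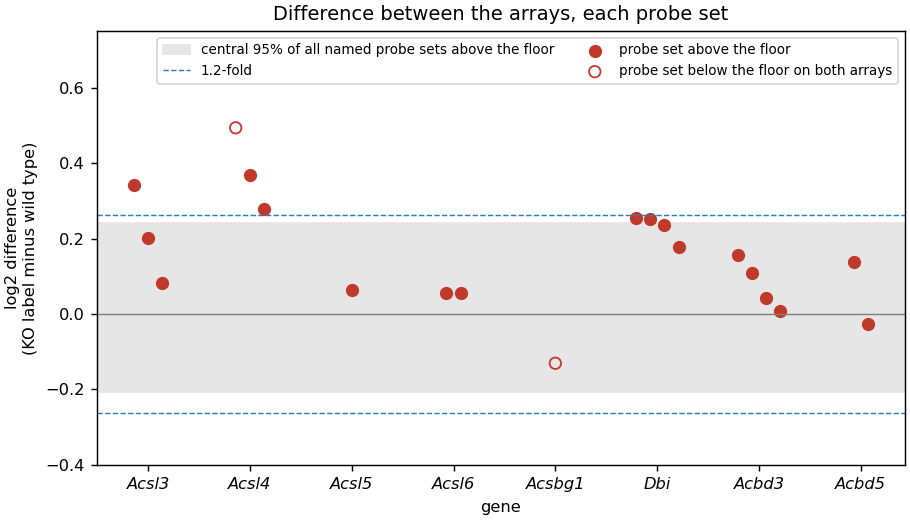
Log2 difference (array labelled Mfsd2a KO minus wild-type array) of each probe set by gene, filled where above the floor, with the central 95% of all named probe sets in grey and 1.2-fold as dashed lines. Both filled points of Acsl4 and 1 of Acsl3 lie past 1.2-fold, and the 4 of Dbi lie under it, at 0.18 to 0.26.

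Among the binding proteins, Dbi, the small cytosolic protein that binds long chain acyl-CoA and whose peptides also act at GABA-A receptors, had the most even difference. Probe set 1422432_at read 2637 on the array labelled Mfsd2a KO and 2214 on the wild-type array, a difference of 0.25 or 1.19-fold. The other 3 probe sets carry the suffix _x_at, which marks possible cross-hybridisation. Probe set 1433991_x_at read 3893 on the array labelled Mfsd2a KO and 3261 on the wild-type array, a difference of 0.26. Probe set 1438093_x_at read 1887 on the array labelled Mfsd2a KO and 1601 on the wild-type array, a difference of 0.24. The brightest, 1455976_x_at, read 4631 on the array labelled Mfsd2a KO and 4092 on the wild-type array, a difference of 0.18 or 1.13-fold. All 4 were at least 1.1-fold higher and 0 reached 1.2-fold, with an SD of 0.036 between them.

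Acbd3, a Golgi protein that recruits a phosphatidylinositol kinase, had 4 probe sets with differences between 0.0088 and 0.16. The upper end was 1456316_a_at, which read 368 on the array labelled Mfsd2a KO and 330 on the wild-type array. The lower end was 1428668_at, the brightest, with 549 on the array labelled Mfsd2a KO and 546 on the wild-type array. The 4 differences had an SD of 0.066, and 2 of them lay below 0 after subtraction of the spike-in median. Acbd5, a peroxisomal membrane protein for very long chain acyl-CoA whose loss in people causes retinal dystrophy with white matter disease, had probe sets of both signs. Probe set 1428236_at read 1379 on the array labelled Mfsd2a KO and 1255 on the wild-type array, a difference of 0.14, whereas 1446433_at read 123 on the array labelled Mfsd2a KO and 125 on the wild-type array, a difference of -0.028.

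Ordered by their differences, the Acsl4 probe sets above the floor (0.28 to 0.37) did not overlap those of Dbi (0.18 to 0.26), and those of Dbi did not overlap those of Acbd3 (0.0088 to 0.16). The gaps, of 0.022 and 0.023, were smaller than the SD of 0.0886 among probe sets of 1 gene, so neither separates neighbouring genes beyond that spread. Acsl3 (0.082 to 0.34) overlapped all 3 of these genes. Acbd3, Acbd5, Acsl5 and Acsl6 overlapped or lay within 1 SD of one another. The 9 probe sets above the floor of Acsl3, Acsl4 and Dbi had a median difference of 0.25, and the 9 of Acsl5, Acsl6, Acbd3 and Acbd5 one of 0.057, a division made after the values were seen.

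**Figure D3:**
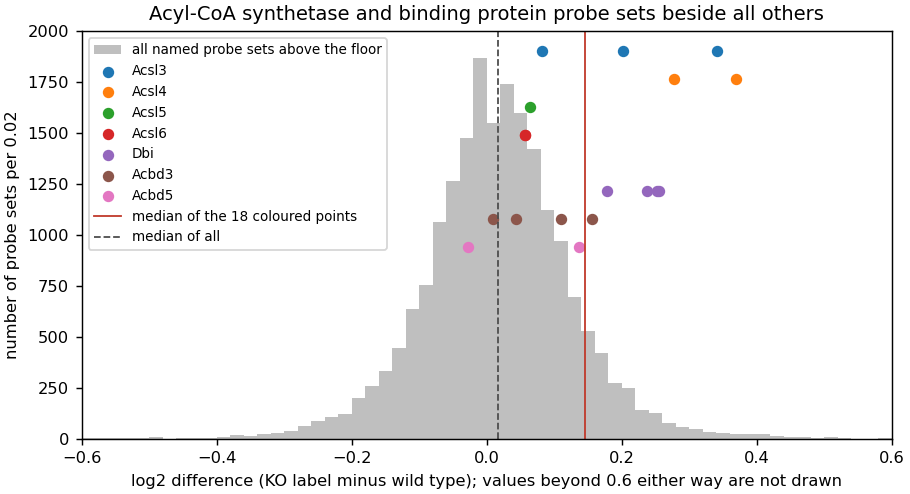
Histogram of the log2 difference (array labelled Mfsd2a KO minus wild-type array) of all named probe sets above the floor, with the 18 synthetase and binding protein probe sets as points at heights set only for legibility. The median of the 18 is 0.15 and that of all is 0.016, and with the values as deposited 1 point, of Acbd5, lies below 0.

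By the brightest probe set of each gene, markers of other cell types differed between the arrays in both directions. Microglia markers had 7 of 8 listed genes above the floor, all 7 with differences above 0 and 6 at least 1.2-fold higher, and their summed intensity was 2757 on the array labelled Mfsd2a KO and 2358 on the wild-type array. Lens markers, of a tissue that the dissection was meant to remove, had 6 of 8 above the floor, 5 of them above 0 and 2 at least 1.2-fold higher, with sums of 2032 on the array labelled Mfsd2a KO and 1769 on the wild-type array. Cornea and conjunctiva markers, also of tissue cut away, went the other way, with 6 of 6 above the floor, all 6 below 0 and 5 at least 1.2-fold lower, and sums of 1111 on the array labelled Mfsd2a KO and 1461 on the wild-type array. Ganglion cell markers, with 8 of 9 above the floor, had 7 below 0 and sums of 13511 on the array labelled Mfsd2a KO and 15476 on the wild-type array. Mueller glia markers (7 of 7 above the floor), from cells known to hold much Dbi, had 2 above 0 and 0 at least 1.2-fold different, with sums of 24765 on the array labelled Mfsd2a KO and 24935 on the wild-type array. Rlbp1, with 6018 on the array labelled Mfsd2a KO and 6145 on the wild-type array, counts in both this sum and that of pigment epithelium. Slc1a3, at 0.21 by its brightest probe set, ran from 0.016 to 0.44 over its 5 probe sets above the floor. Of the 14 Mueller glia probe sets above the floor, 6 were above 0. No marker of these 5 lists is listed at 0. Endothelium markers, with 6 of 6 above the floor, had 5 below 0 and 0 at least 1.2-fold different. Myelin markers, with 2 of 6 above the floor, had 1 above 0 and 1 below. Their 10 probe sets above the floor had a median of -0.41, with 4 above 0, and the 7 of Mbp ran from -2.00 to 0.14. The part of these cells and tissues in the differences of Acsl3, Acsl4 and Dbi was not tested.

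The genes around acyl-CoA were compared by the brightest probe set of each gene, where, of 11568 genes above the floor, 1.79% were past 1.2-fold on the higher side and 1.17% on the lower side. By that measure 1 of the 7 synthetase and binding protein genes above the floor, Acsl4, was at least 1.2-fold higher. In 6 neighbouring lists of 59 genes, 34 were above the floor, of which 16 had a difference above 0, and 0 were at least 1.2-fold higher or lower. Their median difference was -0.0085, within a range of -0.26 to 0.14.

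Other acyl-CoA synthetases had 6 of 7 genes above 0 and a median of 0.056, led by Aacs, which activates acetoacetate, with 415 on the array labelled Mfsd2a KO and 379 on the wild-type array (difference 0.13). The fatty acid transport proteins, which also have synthetase activity, had 2 genes above the floor, the larger difference being that of Slc27a1, with 336 on the array labelled Mfsd2a KO and 304 on the wild-type array (0.14, or -0.074 in its other probe set). The other acyl-CoA binding proteins Acbd4 and Acbd6 differed by -0.047 and -0.044, or 0.0082 and -0.025 in their other probe sets above the floor. Medians of the synthetase and transport protein lists turned below 0 when the spike-in median was subtracted.

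The thioesterases, which split acyl-CoA again, had 7 of 12 genes below 0 and a median of -0.073, and the largest difference was that of Acot6, with 102 on the array labelled Mfsd2a KO and 116 on the wild-type array (-0.19). The carnitine acyltransferase list, the route into mitochondria, had 4 of 6 below 0 and a median of -0.043, which turned to 0.012 with the mean over all probe sets and 0.010 without those marked _s_at or _x_at, and its carrier Slc25a20 read 399 on the array labelled Mfsd2a KO and 467 on the wild-type array (-0.23). The peroxisomal list had 4 of 5 below 0 and a median of -0.044, and Abcd2, a peroxisomal importer of very long chain acyl-CoA, read 247 on the array labelled Mfsd2a KO and 295 on the wild-type array (-0.26, with probe sets above the floor from -0.26 to 0.18). The fatty acid desaturase list had the largest differences of the 7 lists. Of 7 above the floor 4 were at least 1.2-fold higher and the other 3 were below 0, the lowest at -0.10. Higher were Scd1 (1.21) and Scd2 (0.77), which make monounsaturated fatty acids. Also higher were Fads1 (0.52) and Fads2 (0.45), which act on the path to polyunsaturated ones. Acsl4, with 0.37, lay below all of these 4 higher genes by the brightest probe set of each. The other Fads1 probe set above the floor differed by 0.30, which is below that value of Acsl4. No test of a difference between lists could be made with 1 array per genotype.

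**Figure D4:**
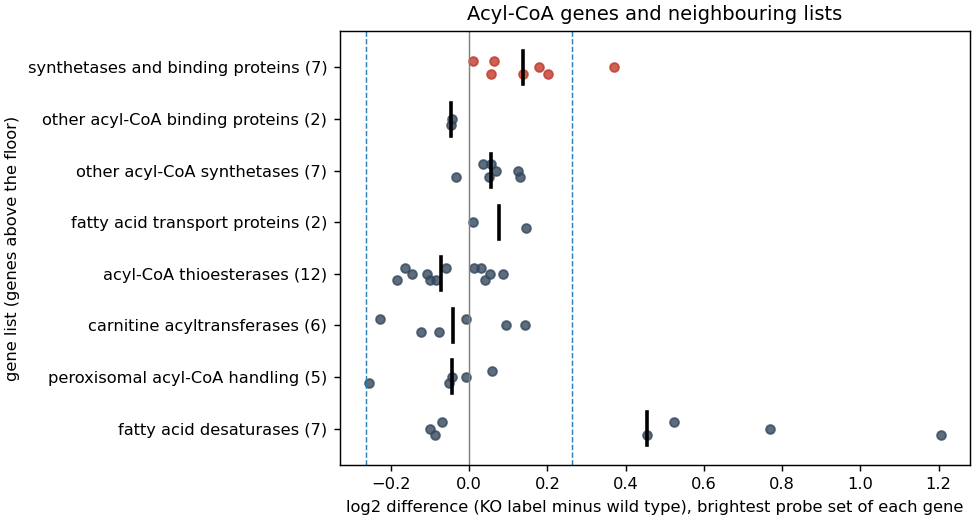
Log2 difference (array labelled Mfsd2a KO minus wild-type array) of each gene above the floor by its brightest probe set, with the synthetase and binding protein genes in red, 7 neighbouring lists in dark grey, list medians as black bars and 1.2-fold as dashed lines. Acsl4 is the 1 red point past 1.2-fold, and past it in the other lists are 4 desaturases.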

How the data were processed

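The deposited table holds linear intensities of 45101 probe sets from 2 arrays, made by the authors with Partek 6.6 and RMA, per the submitters' processing notes, which give no order of steps. The scale was read from the values (medians of 93.6 on the array labelled Mfsd2a KO and 94.4 on the wild-type array). RMA equalises the arrays and shrinks differences of dim probe sets. Scanner files and detection calls were not used here, and the number of arrays limits the precision.

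Base 2 logarithms were subtracted, knockout label minus wild type. The floor was the median of an array after leaving out 64 control probe sets (93.4 on the array labelled Mfsd2a KO and 94.2 on the wild-type array). Symbols came from the platform annotation, in which 34958 probe sets had 1 symbol, 932 several and 9211 none. No test was possible with 1 array per genotype, so sizes of difference were counted. The technical SD pools probe sets above the floor of the same gene (13738 probe sets). The genes, lists and sizes were chosen with earlier results of these data known. Named are all the genes of the set, Mfsd2a, and from each neighbouring list the genes at least 1.2-fold different and the 1 with the largest difference. Acbd6, single marker genes, the sex-linked and control genes and the further family genes fall outside that rule and were named after their values were seen. With 1 difference per probe set, no gene could be named for a like pattern. Alternatives were other sizes, floors, scalings, a pseudocount of 16, a loess trend (span 0.3) and other choices among probe sets. Software was pandas 2.3.3, numpy 2.4.6 and statsmodels 0.14.6 under Python 3.11.15, and the steps were tested on simulated data.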

Additional observations from a re-analysis of the deposited data

How the results depend on the processing

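No paired analysis was possible because the genotypes have 1 array each, and no array could be left out. The 3 probe sets at least 1.2-fold higher became 9 at 1.1-fold and 0 at both 1.3-fold and 1.5-fold, by the sizes themselves. They became 1 of 7 with only the brightest probe set of each gene and 1 of 18 with the spike-in median subtracted, both chosen after seeing the data. Subtracting the hybridisation spike-in median gave a median of 0.047 in place of 0.15. Under the other 6 settings, namely the floor taken away or set to the 70th percentile, no _s_at or _x_at probe sets, the loess trend or the overall median removed and a pseudocount, the count stayed between 2 and 4 and the median between 0.082 and 0.17. The count at least 1.2-fold lower was 0 in every setting run. Across 7 alternatives per gene, Acsl4 lay between 0.27 and 0.38, Acsl3 between 0.10 and 0.34, Dbi between 0.079 and 0.25 and Acbd5 between 0.037 and 0.14. Each of these is 1 value per gene, from its brightest probe set or a mean of its probe sets. By that value none of these genes was below 0 in any alternative, whereas Acbd3 was below 0 in 3, and Acsl5 and Acsl6 in 1 each. Single probe sets could differ. Probe set 1446433_at of Acbd5 was below 0 as deposited (-0.028), and the lowest of Acsl3 was -0.017 with the hybridisation spike-in median subtracted. The desaturase median moved from 0.45 to 0.055 with no floor. The cause of these shifts was not tested, beyond what each setting fixes by its construction.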

Other observations

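Further genes of these families lay outside the set and were looked up after the first results. Acsbg2 and Acsbg3, relatives of Acsbg1, and Acbd7, a relative of Dbi, had 4 probe sets, all below the floor on both arrays. Eci2, a peroxisomal isomerase with an acyl-CoA binding domain, read 586 on the array labelled Mfsd2a KO and 570 on the wild-type array, a difference of 0.042. The 5 probe sets above the floor of Acbd4, Acbd6 and Eci2 had differences between -0.047 and 0.042.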
